A study of Mus musculus with 12 samples.

Results

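Genes that encode neurotrophic factors and their receptors were followed across the newborn mouse retina. They were chosen by name, as the rows Ntrk2, Ntrk3, Ngfr, Bdnf, Ntf3, Ret, Gfra1 and Cntfr, and 8 of 8 were found among the 38720 genes listed in both tables, one for retinal ganglion cells (RGCs) and one for the remaining retinal cells (non-RGCs). RNA was taken from postnatal day 0 (P0) retinas of the C57/BL6 strain, with 3 libraries in each of 4 groups: mKO RGCs, WT RGCs, mKO non-RGCs and WT non-RGCs. The mKO pups carried Cre in the Math5 (Atoh7) locus and Ezh2 alleles in which the exons for the catalytic SET domain are flanked by loxP sites. The controls are labelled wild type and are also called littermate controls by the study, so that the Cre allele, the floxed alleles and the deletion cannot be told apart. Math5-Cre acts in progenitors that give rise to RGCs and reaches only part of the RGCs, and very few other retinal cells. All cells were dissociated with papain, and RGCs were captured with magnetic beads against Thy-1 (CD90). The libraries of a group are independent RNA extractions, and whether these came from separate animals is not given, so p-values measure the spread between these samples, which may be technical.

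Neurotrophins are secreted proteins that keep neurons alive and shape their branches. BDNF (Bdnf) acts mainly through TrkB (Ntrk2), a receptor tyrosine kinase, and neurotrophin-3 (Ntf3) through TrkC (Ntrk3), while p75NTR (Ngfr) binds all neurotrophins and their precursors with lower selectivity. GDNF family ligands bind a lipid-anchored GFRα co-receptor, such as GFRα1 (Gfra1), and the complex activates the kinase RET (Ret). CNTF binds its own α receptor (Cntfr), which recruits gp130 (Il6st) and the LIF receptor (Lifr) and signals through JAK and STAT proteins. In the retina these systems are best known for the survival of RGCs and for trophic responses of Müller glia. EZH2 is the enzyme of polycomb repressive complex 2 that methylates histone H3 at lysine 27, a mark that is typically laid over promoters rich in CG dinucleotides.

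Gene positions are those of GENCODE M21 on GRCm38. Bdnf lies at chr2:109674700-109727007 on the + strand, Ntf3 at chr6:126101412-126166910 on the - strand, Ntrk2 at chr13:58806569-59133970 on the + strand and Ntrk3 at chr7:78175959-78738012 on the - strand. Ngfr lies at chr11:95568818-95587735 on the - strand, Ret at chr6:118151745-118197718 on the - strand, Gfra1 at chr19:58235604-58455909 on the - strand and Cntfr at chr4:41657498-41697089 on the - strand. All are protein coding, with between 1 annotated transcript (Ngfr) and 20 (Ntrk3). A value per gene therefore adds up full-length and truncated forms of the Trk receptors. In the exon union, 896 of 6217 bases of Bdnf are shared with the antisense gene Gm45346 and 416 of 5476 bases of Gfra1 with the antisense gene Gm16277. Without strand, reads in those bases cannot be assigned to either gene, and the other 6 genes share no exon bases with another gene.

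RefSeq promoter sequences (GRCm38.p6) were held for 6 of the 8 genes, as 18 windows of 250 bases before a start site; none was held for Ret and Ntrk3. The number of CG dinucleotides per window was 19 in Ntrk2, 16 in Ngfr and 10 in Gfra1, it was 11 and 14 in Ntf3, from 1 to 13 in Bdnf and from 3 to 37 in Cntfr. The median over all 32851 windows was 6. At least 19 CG were held by 19.7% of all windows, at least 16 by 25.4%, at least 13 by 31.5% and at least 37 by 2.2%. One window each of the 3 genes that differed between mKO and WT in both cell fractions is shown, since those genes had called values in both tables and differ widely in CG; for Bdnf and Cntfr it is the window with the most CG. Bases that overlap an annotated exon are left out, and CG is in capitals.
Ngfr, chr11:95587736-95587948, - strand: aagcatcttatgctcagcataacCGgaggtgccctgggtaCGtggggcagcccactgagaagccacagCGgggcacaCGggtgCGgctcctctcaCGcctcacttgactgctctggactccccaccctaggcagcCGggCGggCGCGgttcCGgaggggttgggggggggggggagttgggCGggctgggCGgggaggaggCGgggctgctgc
Cntfr, chr4:41695454-41695703, - strand: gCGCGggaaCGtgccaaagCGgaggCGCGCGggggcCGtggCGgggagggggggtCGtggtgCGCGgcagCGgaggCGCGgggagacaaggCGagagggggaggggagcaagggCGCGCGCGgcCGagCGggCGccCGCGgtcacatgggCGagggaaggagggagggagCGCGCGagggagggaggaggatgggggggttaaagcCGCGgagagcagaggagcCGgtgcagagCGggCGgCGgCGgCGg
Bdnf, chr2:109694159-109694408, + strand: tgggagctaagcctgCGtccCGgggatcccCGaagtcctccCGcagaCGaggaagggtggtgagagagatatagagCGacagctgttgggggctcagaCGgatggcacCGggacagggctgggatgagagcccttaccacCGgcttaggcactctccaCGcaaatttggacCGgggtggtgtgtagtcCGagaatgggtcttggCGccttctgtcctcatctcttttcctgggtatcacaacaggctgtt
The shown stretches hold 14, 37 and 13 CG in 213, 250 and 250 bases. Ngfr and Cntfr were lower in mKO than in WT libraries and Bdnf was higher, as given below with the base composition of their exons. CG counts describe these windows and say nothing of histone marks, which were not analysed here.

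The libraries held between 7139633 and 13014004 reads on genes. The deposited means do not carry the sample numbers, so libraries are lettered A to C from the deepest to the shallowest in each group. A shared letter is not known to link libraries of different groups. Ezh2, the targeted gene, had 1354, 1476 and 1443 normalized reads in the libraries labelled mKO RGC and 1190, 1206 and 1678 in WT RGCs, and the 2 groups overlapped (adjusted p = 0.637, limma). In non-RGCs it had 1889, 2107 and 2509 against 2115, 2149 and 1683 (adjusted p = 0.584, limma). The deleted exons are only part of the transcript, so whole-gene Ezh2 reads do not check the label, and every direction below rests on it. The study itself reads a change in Ezh2 from its RNA-seq of P0 RGCs, where no difference was called here. By qPCR and Western blot it also reports lower Ezh2 in mKO RGCs, and less of the histone mark in the ganglion cell layer. The reason for the unlike RNA-seq result was not tested. Atoh7 was called lower in mKO than in WT non-RGCs (limma), but not with the GC content trend removed, and it was not called in RGCs. WT RGC library C stood apart from the other WT RGC libraries in Atoh7, the gene that carries Cre in mKO (277 against 80.1 and 84.2 normalized reads, 12 libraries scaled together) and in the summed level of 10 progenitor and Müller cell markers (18840 against 12640 and 12940). Gfap, an astrocyte gene, was high in library A of mKO RGCs (694 against 34.5 and 57.8) and in library A of mKO non-RGCs (263 against 47.7 and 42.2). The 12 RGC markers were all called higher in RGC than in non-RGC libraries in both genotypes (median log2 difference 3.46 in WT and 1.62 in mKO), so the fractions differed the way their labels say. The captured cells were not RGCs alone, since 6 of 6 microglia markers were also called higher in the RGC fraction (median log2 difference 4.87 in WT and 3.7 in mKO, limma). Endothelial and pericyte markers were mixed, with 3 of 8 called higher and 2 lower in WT RGCs, and 4 higher and 3 lower in mKO RGCs (limma). Their summed level was lower in RGCs, at 4006 to 5301 against 6951 to 7391 in WT and 3510 to 4475 against 5501 to 6169 in mKO. The summed level of 8 mesenchyme markers varied widely between libraries. It was 5207, 16050 and 855.9 in WT RGCs, 7176, 879.5 and 2310 in mKO RGCs, and 1462, 7618 and 1524 in WT non-RGCs. In mKO non-RGCs it was 806.8 to 1183. Their median log2 difference between fractions was 1.33 in WT and 2.04 in mKO, with 0 called higher in RGCs and 1 and 2 lower (limma).

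The first question was where in the newborn retina these genes were read. Levels between genes were compared only per kilobase of annotated exon, on normalized reads of the 12 libraries scaled together. In WT RGCs Cntfr (476 ± 8.64 per kilobase, SD, n = 3), Ret (459 ± 94.2) and Ngfr (440 ± 37.6) were the highest, and their ranges overlapped. Ntrk2 (117 ± 35.5), Gfra1 (74.1 ± 20.8) and Bdnf (72 ± 22.6) followed, each overlapping its neighbour in that order. Ntrk3 was at 8.31 ± 1.84 and Ntf3, with 0, 1 and 1 reads in the 3 libraries, at 0.425 ± 0.368. In WT non-RGCs Ngfr (482 ± 129) and Cntfr (480 ± 49.0) led and overlapped, before Gfra1 (221 ± 93.6), Ret (108 ± 36.9), Ntrk2 (24.7 ± 3.49), Bdnf (13.5 ± 1.66), Ntf3 (5.56 ± 3.48) and Ntrk3 (2.27 ± 0.271), where neighbours did not overlap. The order among mKO RGCs was Ret (367 ± 2.96), Cntfr (314 ± 10.1), Ngfr (263 ± 16.4), Ntrk2 (133 ± 4.53), Bdnf (112 ± 10.7), Gfra1 (68.0 ± 3.76), Ntrk3 (11.9 ± 1.48) and Ntf3 (2.45 ± 0.662), with no overlap between neighbours. Among mKO non-RGCs it was Cntfr (306 ± 30.9), Ngfr (250 ± 34.4), Gfra1 (147 ± 28.6), Ret (69.0 ± 17.7), Bdnf (36.3 ± 1.98), Ntrk2 (18.0 ± 2.13), Ntf3 (9.34 ± 2.09) and Ntrk3 (2.26 ± 0.353), where Cntfr and Ngfr overlapped. The exon union is long for genes with many transcripts, and per kilobase of the longest transcript Ntrk2 came to 258 ± 78.2 in WT RGCs and, at 294 ± 9.98 in mKO RGCs, passed Ngfr.

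**Figure D1:**
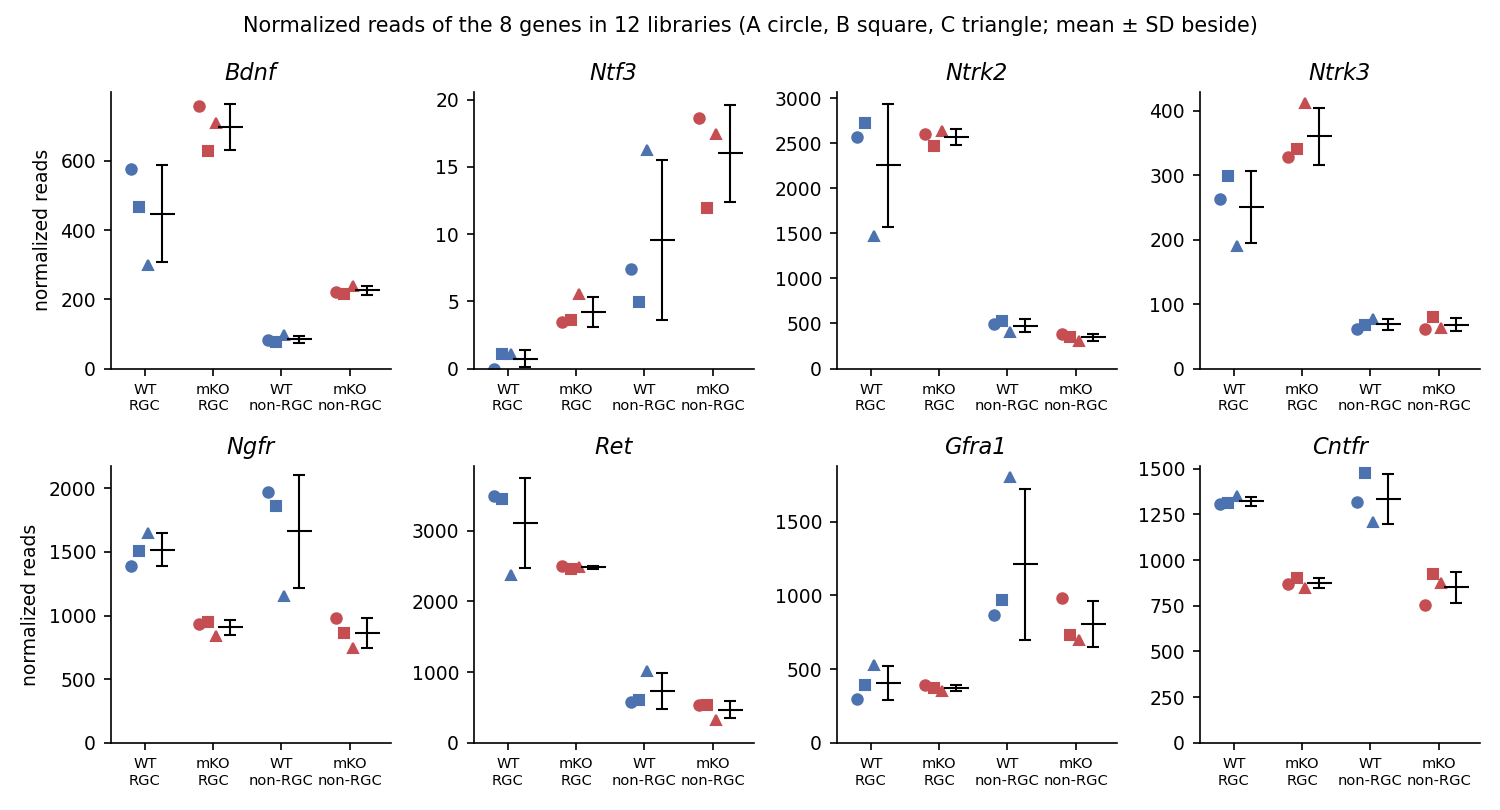
Normalized reads (12 libraries scaled together, linear axes from 0) of each of the 8 genes in the 3 libraries of each group, with the mean and SD beside the points. Ntrk2, Ntrk3, Ret and Bdnf sit higher in RGCs, Ntf3 and Gfra1 higher in non-RGCs, and Ngfr and Cntfr at like levels in both fractions. For Ret, library C of WT RGCs is low, and library C of WT non-RGCs is high.

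RGCs were then compared with non-RGCs of the same genotype. The tables were normalized separately, so the recovered reads of all 12 libraries were scaled together for this comparison, and 16508 genes were tested. In WT, 4 of the 8 genes were higher in RGCs (Ntrk2, Ntrk3, Bdnf and Ret) and 2 were lower (Ntf3 and Gfra1); of all genes tested, 26.4% were called higher and 22.6% lower. In mKO the counts were again 4 and 2, for the same 6 genes, where 29.1% of all genes were called higher and 25.4% lower. Ntf3 is in these counts only because its mean in mKO non-RGCs reached the minimum. The median log2 difference of the 8 genes was 0.92 in WT and 0.85 in mKO, against -0.03 and -0.02 for all genes tested. The microglia markers that were higher in the captured fraction, the mixed vascular markers and the variable mesenchyme markers stand beside these counts. Their part in the 4 higher genes was not tested. In these bulk samples a difference in the share of a cell type and a difference in RNA per cell cannot be told apart.

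Bdnf had 577, 468 and 298 normalized reads in WT RGCs and 81.0, 75.5 and 95.5 in WT non-RGCs. In mKO it had 759, 628 and 709 in RGCs and 221, 217 and 240 in non-RGCs. The fractions did not overlap in either genotype, and Bdnf was higher in RGCs by 2.36 ± 0.20 on the log2 scale in WT (SE, 5.12-fold, adjusted p = 1.04e-06, limma) and by 1.62 ± 0.20 in mKO (3.08-fold, adjusted p = 2.82e-05, limma). Ntf3, the TrkC ligand, went the other way on few reads. It had 2 reads over the 3 WT RGC libraries and 28 over the WT non-RGC libraries, a ratio of 13.1 after scaling with a 95% interval from 3.31 to 114 that covers counting error only. In mKO it had 14 and 47 reads, a ratio of 3.83 (2.08 to 7.54). Both differences passed the test (adjusted p = 0.000692 in WT and 0.00874 in mKO, limma), and without library A of both mKO fractions the latter did not (adjusted p = 0.0709). Ntf3 reached the minimum mean of 10 only in mKO non-RGCs (16.0, against 9.53 in WT non-RGCs), the group where it was highest. The mKO test is therefore tied to the way the gene came to be tested and gives no separate support.

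Ntrk2, the BDNF receptor, had 2572, 2723 and 1470 normalized reads in WT RGCs and 496, 533 and 403 in WT non-RGCs. In mKO it had 2601, 2475 and 2643 in RGCs against 387, 349 and 305 in non-RGCs. It was 4.58-fold higher in WT RGCs (log2 difference 2.20 ± 0.20, SE, adjusted p = 1.37e-06, limma) and 7.43-fold higher in mKO RGCs (2.89 ± 0.20, adjusted p = 1.48e-07, limma). Ntrk3, the neurotrophin-3 receptor, was read at a lower level, with 263, 299 and 190 in WT RGCs and 60.8, 67.5 and 77.0 in WT non-RGCs. Its log2 difference was 1.84 ± 0.20 in WT (3.58-fold, adjusted p = 8.62e-06, limma) and 2.39 ± 0.20 in mKO (5.24-fold, adjusted p = 8.76e-07, limma). Ngfr overlapped between the fractions, with 1393, 1505 and 1652 in WT RGCs and 1970, 1862 and 1154 in WT non-RGCs. Its difference did not pass the test in either genotype, and the 95% interval of the fold ran from 0.722 to 1.21 in WT and from 0.815 to 1.37 in mKO. WT non-RGC library C bore on that value, since without it Ngfr was lower in WT RGCs (log2 difference -0.35, adjusted p = 0.0317, limma).

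Ret and its co-receptor Gfra1 were placed in opposite fractions. Ret had 3490, 3449 and 2367 normalized reads in WT RGCs and 574, 599 and 1018 in WT non-RGCs, a log2 difference of 2.11 ± 0.23 (SE, 4.33-fold, adjusted p = 9.4e-06, limma). In mKO it was 5.44-fold higher in RGCs (2.44 ± 0.23, adjusted p = 2.65e-06, limma). Gfra1 had 299, 393 and 526 in WT RGCs against 865, 967 and 1800 in WT non-RGCs and was 2.89-fold lower in RGCs (log2 difference -1.53 ± 0.26, adjusted p = 0.000284, limma). In mKO it was 2.14-fold lower (-1.09 ± 0.26, adjusted p = 0.00293, limma). The library lettered C held the highest Gfra1 value within each WT fraction. Cntfr had 1306, 1312 and 1351 in WT RGCs and 1316, 1478 and 1208 in WT non-RGCs, and the fold lay between 0.856 and 1.16 in WT and between 0.886 and 1.2 in mKO (95% intervals).

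**Figure D2:**
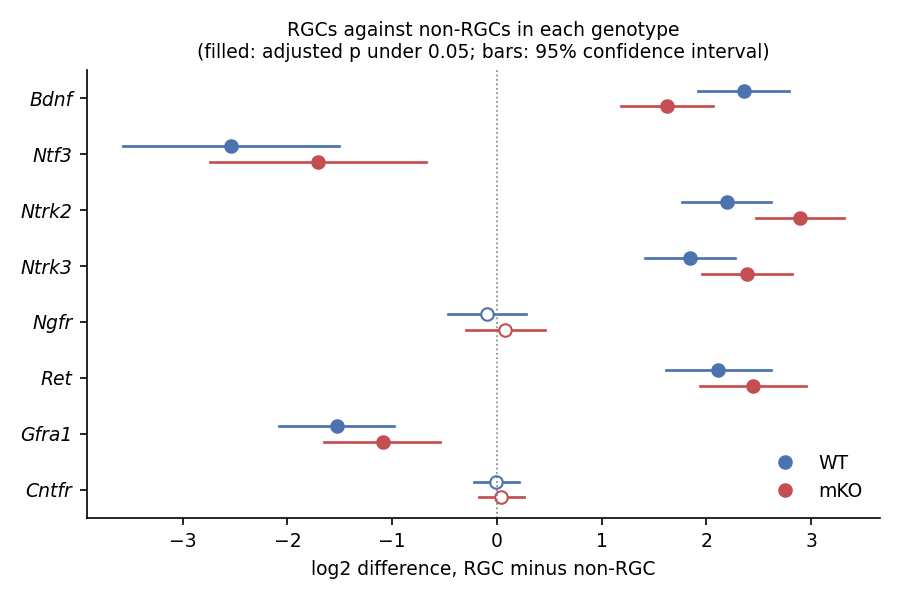
Log2 difference between RGCs and non-RGCs for each gene in WT (blue) and mKO (red), with 95% confidence intervals and filled points at an adjusted p under 0.05. In both genotypes 4 genes lie to the right, Ntf3 and Gfra1 lie to the left, and the intervals of Ngfr and Cntfr include 0.

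The second question was whether the genes differed between mKO and WT in RGCs. In this and the non-RGC comparison values carry the authors' size factors of each table, and genes were tested where the mean of a group reached 10 normalized reads. Of the 7 genes tested, Bdnf and Ntrk3 were called higher and Ngfr and Cntfr lower in mKO RGCs, where 16.3% of the 16085 genes tested were called higher and 21.2% lower. The median log2 difference of the 7 genes was -0.10, against -0.00 for all genes tested. Ntf3 fell under the minimum and was not tested, with 4, 4 and 6 reads in mKO and 0, 1 and 1 in WT RGCs, a scaled ratio of 5.92 (95% interval 1.36 to 53.7, counting error only). With no filter on low values Ntf3 was called in RGCs, while Bdnf (adjusted p = 0.0513, limma) and Ntrk3 (0.0577) were not.

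Cell type markers differed between the genotypes in the same RGC libraries. Of the 12 RGC markers 10 were called lower in mKO and 0 higher, with a summed level of 23230 to 24020 against 30660 to 34830 in WT, and with the GC content trend removed 8 were still called lower. Blood genes (4 of 4 called higher, summed level 235 to 296 against 101 to 112) and pigment epithelium genes (3 of 5 tested called higher, 494.8 to 762 against 251.3 to 350.1) were higher in mKO RGCs. Among the rest, 4 of 8 photoreceptor genes and 5 of 10 progenitor and Müller cell genes were called lower, against 21.2% of all genes. Of 10 amacrine and horizontal cell genes 4 were called lower and 1 higher. Of 7 astrocyte genes and of 8 endothelial and pericyte genes, 1 each was called lower. With the GC content trend removed, 2 photoreceptor, 1 progenitor and Müller cell and 3 amacrine and horizontal cell genes were still called lower (limma). Of the astrocyte and of the endothelial and pericyte genes 0 were, and 4 blood genes and 1 pigment epithelium gene were still called higher. The part of these cell types in the differences below was not tested.

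Bdnf had 764, 638 and 727 normalized reads in mKO RGCs and 584, 471 and 315 in WT RGCs. The groups did not overlap, and the difference of 0.68 ± 0.21 on the log2 scale (SE, 1.6-fold, adjusted p = 0.0427, limma) lay close to the threshold. The call was lost in 9 of 15 alternatives, among them leaving out library A, B or C of mKO (adjusted p = 0.128, 0.0788 and 0.121) or library B of WT (0.0681). With any single library left out the log2 difference stayed between 0.431 and 0.875, in tests that also had fewer libraries. Without library C of WT the call held at a smaller log2 difference of 0.43 (adjusted p = 0.0122, limma). Ntrk3 had 331, 347 and 422 in mKO and 267, 301 and 201 in WT, also without overlap (log2 difference 0.53 ± 0.17, 1.44-fold, adjusted p = 0.0471, limma). That call was lost in 10 of 15 alternatives, among them leaving out library A, B or C of mKO (adjusted p = 0.0801, 0.101 and 0.159) or library A of WT (0.0831). Its log2 difference stayed between 0.36 and 0.65 with any single library left out. Ntrk2 had 2618, 2514 and 2709 in mKO and 2604, 2739 and 1553 in WT, and the groups overlapped (0.23 ± 0.20, adjusted p = 0.408, limma). Its mean difference rested on WT library C, without which the log2 difference was -0.03 (adjusted p = 0.604).

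Ngfr, the receptor shared by the neurotrophins, had 938, 961 and 863 normalized reads in mKO RGCs against 1411, 1514 and 1746 in WT. The groups were clear of each other, and Ngfr was 1.69-fold lower (log2 difference -0.75 ± 0.09, SE, adjusted p = 0.00119, limma). Cntfr, the CNTF receptor, had 875, 918 and 870 against 1323, 1320 and 1427. It was 1.53-fold lower, again with no overlap (-0.61 ± 0.06, adjusted p = 0.000722, limma), and both calls held in 13 of 15 alternatives. Ret had 2516, 2500 and 2547 in mKO and 3533, 3470 and 2501 in WT (-0.31 ± 0.13, adjusted p = 0.0993, limma). WT library C alone lay among the mKO values, and without it Ret was lower in mKO (log2 difference -0.47, adjusted p = 7.85e-05, limma). Gfra1 had 395, 379 and 360 in mKO, within the WT values of 303, 395 and 556 (-0.10 ± 0.20, adjusted p = 0.724, limma). Its direction turned without WT library C (0.13, adjusted p = 0.387), with scaling by the total (0.02, adjusted p = 0.942) and with the GC content trend removed (0.05, adjusted p = 0.885).

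The differences of the 7 genes in RGCs were ordered largely by the base composition of their exons. Exon GC content was 44.8% in Bdnf, 45.0% in Ntrk3, 46.8% in Ntrk2, 51.3% in Gfra1, 52.4% in Ret, 58.6% in Ngfr and 59.8% in Cntfr. Over all genes the log2 difference was also lower at higher GC content. Genes within 1 percentage point of Bdnf had a median of 0.19 (1329 genes), those around Ntrk3 a median of 0.18 (1316 genes), those around Ngfr -0.46 (716 genes) and those around Cntfr -0.52 (475 genes). When the trend with GC content was removed from each library, 14.1% of all genes were still called but 0 of the 7 genes were (limma), and 1 of them, Ngfr, had an unadjusted p under 0.05. The log2 differences then were 0.515 for Bdnf (adjusted p = 0.159), 0.37 for Ntrk3 (0.196), -0.29 for Ngfr (0.0683) and -0.09 for Cntfr (0.263). Which part of these differences followed GC content through library preparation and which through expression was not tested. Scaling by the total shifted the median of all genes to 0.12 in RGCs and 0.15 in non-RGCs, against -0.00 and -0.03 with the authors' size factors.

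**Figure D3:**
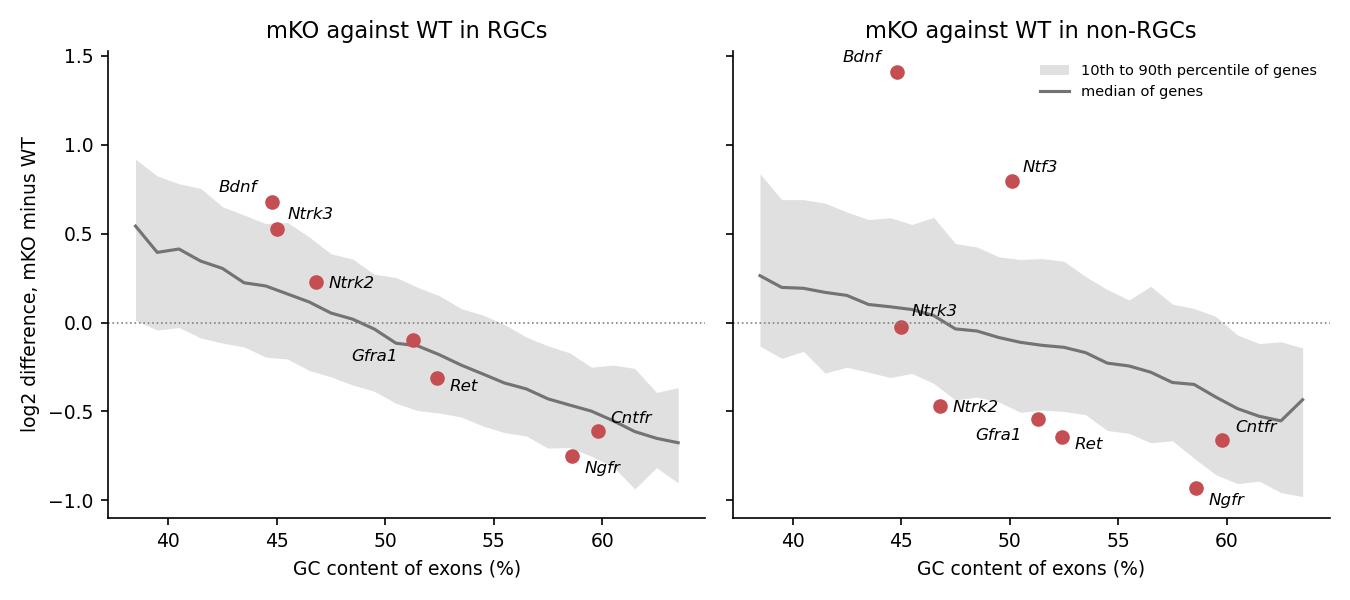
Log2 difference between mKO and WT (vertical) against exon GC content in percent (horizontal) in RGCs (left) and non-RGCs (right), where the grey line and band are the median and the 10th to 90th percentile in steps of 1 percentage point, over genes whose mean reaches 50. In RGCs 5 of the 7 genes lie within the band, with Bdnf (0.68) above it and Ngfr (-0.75) below it, and in non-RGCs Bdnf (1.41) and Ntf3 (0.80) lie above the band and Ngfr (-0.93), Ret, Gfra1 and Ntrk2 below it.

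In non-RGCs, Bdnf was called higher and Ngfr and Cntfr lower in mKO among the 8 genes tested, where 4.18% of 15326 genes were called higher and 6.43% lower. The median log2 difference of the 8 genes was -0.505, against -0.03 for all genes tested. Bdnf had 210, 209 and 233 normalized reads in mKO and 79.4, 73.5 and 91.8 in WT. It was 2.65-fold higher, with no overlap (log2 difference 1.41 ± 0.20, SE, adjusted p = 0.00638, limma), and the call held in 15 of 15 alternatives. With the GC content trend removed, 1.52% of all genes were called, and Bdnf, with a log2 difference of 1.32 (adjusted p = 0.0211, limma), was the 1 called gene of the 8.

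The calls of the other genes were less stable in non-RGCs. Ngfr had 933, 831 and 723 normalized reads in mKO and 1931, 1815 and 1109 in WT, with no overlap (log2 difference -0.93 ± 0.21, SE, 1.91-fold lower, adjusted p = 0.0249, limma). Cntfr had 718, 890 and 852 against 1290, 1441 and 1161 (-0.66 ± 0.14, 1.58-fold lower, adjusted p = 0.0217, limma). The calls were lost in 8 of 15 alternatives for Ngfr and 7 of 15 for Cntfr, which included the GC content trend removed (Ngfr -0.55, adjusted p = 0.175, and Cntfr -0.23, adjusted p = 0.299) and scaling by the total (adjusted p = 0.0558 and 0.0543). Leaving out mKO library B (adjusted p = 0.0993 for Ngfr and 0.081 for Cntfr), WT library A (0.0656 and 0.0574) or WT library B (0.0859 and 0.0949) ended both calls, and leaving out mKO library C ended that of Ngfr (0.0586). With any single library left out, the log2 difference stayed between -1.18 and -0.78 for Ngfr and between -0.74 and -0.57 for Cntfr. Those tests also had fewer libraries.

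Ntrk2 had 368, 337 and 297 normalized reads in mKO non-RGCs and 486, 520 and 387 in WT (-0.47 ± 0.17, SE, adjusted p = 0.102, limma). The values did not overlap, and without WT library C the difference passed the test (-0.60, adjusted p = 0.0455, limma). Ntrk3 had 58.6, 77.7 and 60.7 against 59.6, 65.8 and 74.0, and its log2 difference of -0.02 (95% interval -0.57 to 0.52) changed sign with the scaling and with the library left out. Ret had 510, 516 and 319 in mKO and 562, 584 and 978 in WT, without overlap (-0.64 ± 0.26, adjusted p = 0.127, limma). Gfra1 had 936, 709 and 676 against 848, 943 and 1730 (-0.54 ± 0.25, adjusted p = 0.184, limma). In both of these genes WT library C was far above the other WT libraries, and without it the log2 differences were -0.39 for Ret and -0.22 for Gfra1. Ntf3 had 17.7, 11.5 and 17.0 in mKO and 7.22, 4.84 and 15.6 in WT, and the groups overlapped (0.80 ± 0.47, adjusted p = 0.286, limma). It was tested only because its mean in mKO reached the minimum (15.4, against 9.23 in WT), so its direction is tied to that choice.

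**Figure D4:**
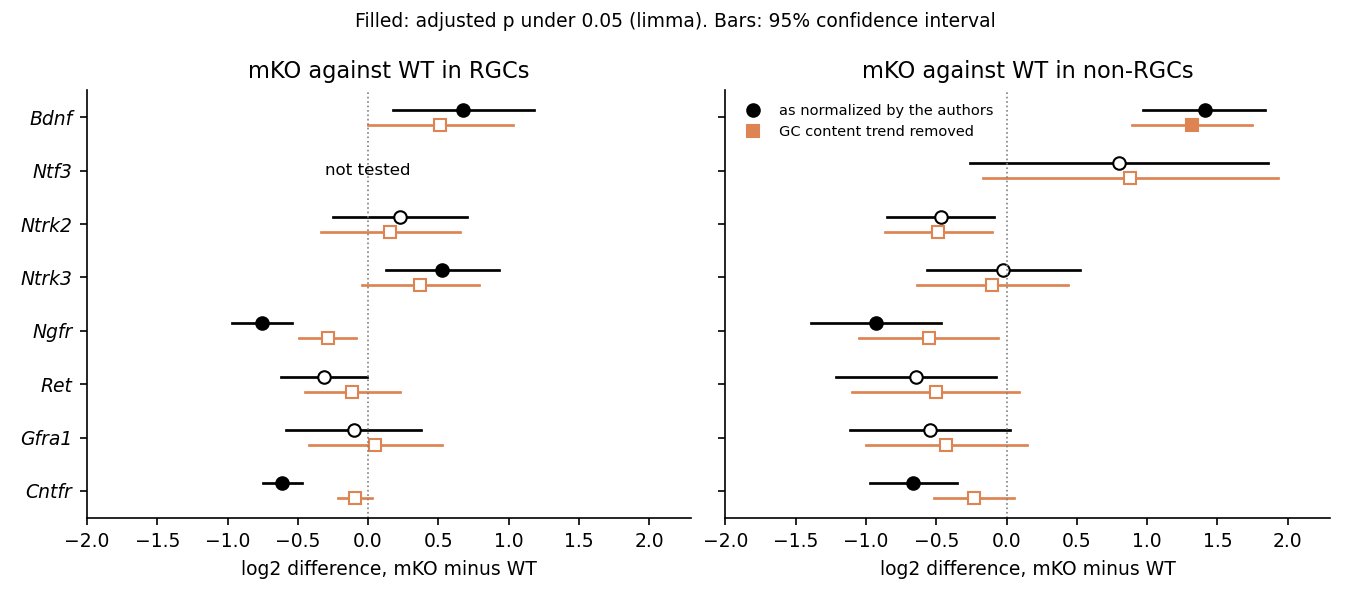
Log2 difference between mKO and WT with its 95% confidence interval in RGCs (left) and non-RGCs (right), with the authors' size factors (black) and with the GC content trend removed (orange); filled points have an adjusted p under 0.05. In RGCs 4 black points and no orange point are filled, and in non-RGCs Bdnf is filled in both.

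Most RGC markers were higher together with Bdnf in non-RGCs. Of the 12 RGC markers, 8 were called higher and 0 lower in mKO non-RGCs, their summed level was 6320 to 8450 in mKO and 5749 to 6172 in WT, and none was at 0 in all libraries. With the GC content trend removed 5 were still called higher. Tubb3 alone had a lower mean in mKO than in WT non-RGCs (1502 against 2116). Thy1, the capture antigen, had 67.0, 79.6 and 93.2 normalized reads in mKO non-RGCs and 4.51, 1.94 and 9.38 in WT (adjusted p = 0.0048, limma). It was lower in mKO RGCs, with 1425, 1426 and 1422 against 2394, 2519 and 2208 (adjusted p = 0.000651, limma). The non-RGC mean of a marker as a share of its RGC mean had a median of 33.0% in mKO and 9.16% in WT over the 12 markers, and it was larger in mKO for Thy1 (5.92% against 0.235%), Pou4f1 (7.5% against 1.9%) and Nefl (28.6% against 10.3%). The RGC mean of every marker was lower in mKO, which by itself raises this share. For Bdnf the same share was 18.8% in WT and 32.3% in mKO. It was smaller in mKO for Ntrk2 (13.5% against 21.2%), Ntrk3 (18.9% against 27.3%) and Ret (18.8% against 23.5%), the other genes that were higher in RGCs. Blood genes (4 of 4 called higher, summed level 514 to 779 against 120 to 193) and pigment epithelium genes (4 of 5 tested called higher, 1705 to 1986 against 408 to 748) were also higher in mKO non-RGCs. Of the other lists, 4 of 8 photoreceptor genes, 3 of 10 amacrine and horizontal cell genes, 1 of 10 progenitor and Müller cell genes and 1 of 7 astrocyte genes were called lower, against 6.43% of all genes. With the GC content trend removed 1 photoreceptor gene and 0 genes of the latter 3 lists were still called lower (limma), and 4 blood and 3 pigment epithelium genes were still called higher. The part of these cells in the Bdnf difference was not tested.

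**Figure D5:**
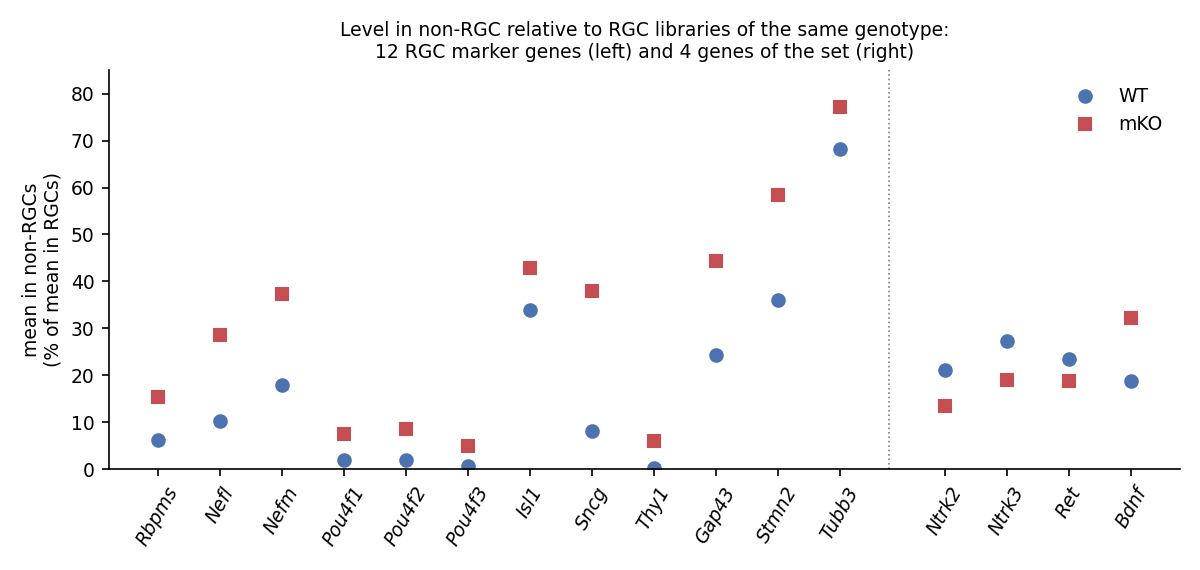
Mean level in non-RGC libraries as a percentage of the mean in RGC libraries of the same genotype (12 libraries scaled together) for 12 RGC marker genes and for the 4 genes of the set that were higher in RGCs. The share is higher in mKO for each marker and for Bdnf (32.3% against 18.8%), and lower in mKO for Ntrk2, Ntrk3 and Ret. The RGC mean of each marker is lower in mKO, and for Tubb3 the non-RGC mean is lower too (1502 against 2116).

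Whether the mKO effect differed between the fractions was tested as an interaction over all 12 libraries. None of the 8 genes passed (limma), where 0.0969% of 16508 genes did. At an unadjusted p under 0.05 there were 2 of the 8 genes, against 9.07% of all genes. For Ntrk2 the log2 difference between mKO and WT was positive in RGCs and negative in non-RGCs, and the 2 were apart by 0.70 ± 0.28 (SE, adjusted p = 0.532, limma). For Bdnf it was positive in both and smaller in RGCs (-0.73 ± 0.29, adjusted p = 0.532, limma). With library C of each WT fraction left out after seeing the data, the difference for Bdnf was -1.08 and passed (adjusted p = 0.0492, limma). Those libraries share a letter by depth only and are not known to be paired. For Ngfr (0.18, 95% interval -0.35 to 0.71) and Cntfr (0.05, -0.26 to 0.36) the effect in the fractions was not shown to differ.

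The other ligands and receptors of the same systems were read at very different depths. Among the neurotrophins, Ntf5 (neurotrophin-4) had at most 3 reads in any library, under the minimum of the test. Sort1 (sortilin), a partner of p75NTR in binding neurotrophin precursors, had 3203, 3248 and 3236 normalized reads in mKO RGCs and 3675, 3777 and 3814 in WT and was lower in mKO (log2 difference -0.22 ± 0.05, adjusted p = 0.0102, limma), but not with the GC content trend removed (adjusted p = 0.168).

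Within the GDNF family, the ligand Gdnf was read almost entirely in the captured fraction, where microglia markers were also higher. It had 96 reads over the 3 WT RGC libraries and 1 over the WT non-RGC libraries, a scaled ratio of 102 (95% interval 17.9 to 4080, counting error only), and 128 against 7 reads in mKO, a ratio of 16.0 (7.55 to 40.6). Nrtn (neurturin), a ligand that prefers GFRα2, had 43.6, 49.8 and 32.9 normalized reads in mKO RGCs and 103, 121 and 215 in WT. It was 3.29-fold lower in mKO RGCs (log2 difference -1.72 ± 0.31, adjusted p = 0.00532, limma) and 1.99-fold lower in mKO non-RGCs (-0.99 ± 0.23, adjusted p = 0.0278, limma), but neither call held with the GC content trend removed (adjusted p = 0.2 and 0.855). Gfra4, the persephin co-receptor, was 5.03-fold higher in WT RGCs than in WT non-RGCs (adjusted p = 4.87e-06, limma) and 1.4-fold lower in mKO than in WT RGCs (adjusted p = 0.0439, limma; 0.846 with the GC content trend removed). Gdnf in RGCs (adjusted p = 0.6) and Gfra2, Gfra3, Artn and Pspn in both fractions (adjusted p from 0.248 to 0.902) did not pass the test between mKO and WT (limma).

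In the CNTF family, Cntf itself was scarce in RGC libraries (2 to 8 reads), and Lif had at most 11 reads in any library. Clcf1, another ligand of the CNTF receptor, was 6.87-fold higher in WT RGCs than in WT non-RGCs (log2 difference 2.78 ± 0.27, adjusted p = 3.02e-06, limma). The signalling subunits Lifr and Il6st were read in both fractions. Lifr was 1.55-fold lower in WT RGCs than in WT non-RGCs (adjusted p = 0.0201, limma). None of these genes passed between mKO and WT (adjusted p from 0.0736 to 1 in RGCs and from 0.303 to 0.952 in non-RGCs, limma), so Cntfr was the only called gene of its list of 7, of which 5 were tested in each fraction. Of all genes, 21.2% were called lower in RGCs and 6.43% in non-RGCs. With the GC content trend removed 0 of the 5 were called in either fraction.

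Downstream genes were taken from 4 lists of signalling and response genes, and with the ligands and receptors above they make 73 genes beside the 8. In RGCs 32 of 69 tested were called, 4 higher and 28 lower in mKO, where 16.3% of all genes were called higher and 21.2% lower. In non-RGCs 14 of 66 tested were called, 0 higher and 14 lower, against 4.18% and 6.43% of all genes. With the GC content trend removed 7 of 69 and 1 of 66 were called, all lower, against 14.1% and 1.52% of all genes in either direction. Of all genes, 1431 of 15900 in RGCs and 92 of 15162 in non-RGCs were then called lower. The count in non-RGCs also fell when single libraries were left out, with 0 called without mKO library B (limma), 2 without WT library B, 8 without mKO library A and 9 without WT library C. Tests with fewer libraries can call fewer genes of any kind. The share of all genes called in those tests is not given here, so the fall is no result about the pathway genes. Of 26 neurotrophin signalling genes, 2 were called higher and 13 lower in RGCs (median log2 difference -0.26), and 0 and 4 in non-RGCs (-0.30), against the same shares of all genes. With the GC content trend removed 0 were called higher and 5 lower in RGCs, and the 4 in non-RGCs were no longer called (limma). Lingo1, a partner of p75NTR in Nogo receptor complexes, was lower in mKO RGCs (log2 difference -0.69 ± 0.08, adjusted p = 0.00116, limma) and in mKO non-RGCs (-0.83 ± 0.13, adjusted p = 0.00858, limma). Rtn4r, the Nogo receptor itself (-0.73 ± 0.17, adjusted p = 0.0138, limma), and the p75NTR binding proteins Maged1 (-0.62 ± 0.06, adjusted p = 0.000651, limma) and Ngfrap1 (-0.57 ± 0.06, adjusted p = 0.000866, limma) were lower in mKO RGCs, and the calls of Maged1 and Ngfrap1 held with the GC content trend removed (adjusted p = 0.00601 and 0.0136). In non-RGCs Frs3, an adaptor of Trk receptors (-0.835 ± 0.21, adjusted p = 0.0336, limma), Kidins220, a Trk substrate (-0.47 ± 0.11, adjusted p = 0.0306, limma), and Sorcs2 (-0.45 ± 0.11, adjusted p = 0.0336, limma) were lower in mKO, as they were in RGCs (adjusted p = 0.00177, 0.0354 and 0.0121, limma).

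Of 8 GDNF signalling genes, 0 were called higher and 4 lower in RGCs, and 0 and 4 of 7 tested in non-RGCs, where 21.2% and 6.43% of all genes were called lower. Sdc3 (syndecan-3) and Ncam1, which both bind GDNF, and the kinase Src were lower in mKO in both fractions. In RGCs the log2 differences were -0.65 ± 0.07 for Sdc3, -0.485 ± 0.06 for Ncam1 and -0.55 ± 0.06 for Src (adjusted p = 0.000874, 0.00145 and 0.000816, limma). The call of Ncam1 in RGCs held with the GC content trend removed (adjusted p = 0.00776), and those of Sdc3 and Src did not (0.116 and 0.828). In non-RGCs the log2 differences were -0.71 ± 0.15 for Sdc3, -0.49 ± 0.13 for Ncam1 and -0.55 ± 0.12 for Src (adjusted p = 0.0214, 0.0428 and 0.0234, limma). Dok4, an adaptor of RET, was lower in mKO RGCs (-0.47 ± 0.08, adjusted p = 0.00497, limma), but this call did not hold with the GC content trend removed. Dok6, another RET adaptor, had 56, 11 and 10 reads in mKO non-RGCs against 86, 85 and 83 in WT (log2 difference -2.07 ± 0.46, adjusted p = 0.0246, limma), and was the 1 pathway gene still called there with the GC content trend removed (adjusted p = 0.0398). Library A of mKO non-RGCs, with 56 reads, lay far above the other mKO libraries.

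Of 10 CNTF signalling genes, 2 were called higher and 2 lower in RGCs and 0 and 2 of 9 tested in non-RGCs, and the shares in RGCs were close to the 16.3% and 21.2% of all genes. The kinase Jak2 was higher in mKO RGCs (0.30 ± 0.05, adjusted p = 0.00356, limma). The inhibitors Socs1 (-1.05 ± 0.25, adjusted p = 0.0165, limma) and Pias3 (-0.585 ± 0.09, adjusted p = 0.00247, limma) were lower there. In non-RGCs Socs3, an inhibitor of JAK and STAT signalling (-0.89 ± 0.23, adjusted p = 0.041, limma), and Pias3 (-0.62 ± 0.12, adjusted p = 0.0159, limma) were lower in mKO. None of these calls held with the GC content trend removed. Of 12 response genes, which many growth factor signals induce, 0 were called higher and 6 lower in RGCs and 0 and 3 in non-RGCs, where 21.2% and 6.43% of all genes were called lower. Egr1 (-0.77 ± 0.10, adjusted p = 0.00157, limma), Junb (-0.77 ± 0.08, adjusted p = 0.000946, limma), Fos (-0.67 ± 0.06, adjusted p = 0.000657, limma) and Vgf (-0.66 ± 0.06, adjusted p = 0.000669, limma) were lower in mKO RGCs, and Fos held with the GC content trend removed (adjusted p = 0.00369). In non-RGCs Dusp4 (-0.71 ± 0.11, adjusted p = 0.00831, limma), Dusp6 (-0.71 ± 0.19, adjusted p = 0.0467, limma) and Egr1 (-0.66 ± 0.16, adjusted p = 0.0315, limma) were lower in mKO. Dissociation with papain can itself induce immediate early genes, and its part was not tested.

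Genes with the most similar pattern were sought by Pearson's r of the log2 values over the 12 libraries, among 12795 genes with means from 50 upwards, as a description that includes the difference between fractions and the base composition of each library. Ntrk2 was most like 6330403A02Rik, Amer3 and Bnc2 (r = 0.995 for each). Ntrk3 was most like Ptchd4 (0.991), Srpk2 and Pcdh11x (0.99 for both). Bdnf was most like Hnmt (0.988), which had means of 148 and 88.5 normalized reads in mKO and WT RGCs and 33.2 and 10.1 in mKO and WT non-RGCs, and then Nudt11 (0.983) and Maoa (0.982), the monoamine oxidase A gene. Ret was most like the dopamine receptor gene Drd2 (0.996), with Lrrn1 and 2510009E07Rik (0.995 for both) after it. Gfra1 was most like Pdzrn3 (0.988), Gpc4 and Igsf11 (0.983 for both), which were all lower in RGCs than in non-RGCs. Ngfr was most like Sipa1 (0.95), Mbd6 (0.94) and Plxnb1 (0.93), and Cntfr most like Colgalt1 (0.97), Atxn2l (0.969) and Phf13 (0.967), genes at like levels in both fractions. For Ntf3, which had few reads, the closest were Arfip1 (0.978), Lrrc51 and Tgds (0.977 for both).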

How the data were processed

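RNA of P0 RGCs and non-RGCs was sequenced from a single end by the authors, aligned to mm10 with STAR 2.3.1z4, counted per gene with featureCounts and normalized with DESeq. The deposited names also state primary alignments and removed duplicates, which can compress high levels. The kit that the study names does not mark strand. The deposited values used here are a signal: the authors divided the counts of a library by its size factor and averaged the 3 libraries of a group. The authors' own comparisons (fold changes, p-values, adjusted p-values) were left aside. No other per-sample columns exist (0).

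The means were split back into whole reads of 3 libraries. Every gene with reads had 1 solution in 3 groups, as did 22926 of 22931 genes in WT non-RGCs, and all simulated means came back exactly (4797 of 4797, 4521 of 4521, 5057 of 5057 and 4632 of 4632). Count models were not used. limma 3.58.1 (R 4.3.3) with a mean-variance trend was run on log2(normalized reads + 1), a scale that understates fold changes of low genes. Genes were tested where a group mean reached 10, with Benjamini-Hochberg adjustment over all genes tested and calls at an adjusted p under 0.05. GC trends were removed by lowess (share 0.3), over genes whose mean reached 50; GC content was known for 99.25% of them in RGCs. In simulated RGC libraries limma recovered 198 of 200 changed genes with 8 false calls in 15861 genes. A simulated GC trend gave 3148 false calls in 15909 genes, and 15 in 15732 once removed. In simulated non-RGC libraries it recovered 199 of 200 with 6 false calls in 15120 genes. The simulations gave every gene the same spread setting, changed genes whose mean reached 50 by 1 on the log2 scale, and held no outlying library. They do not show how well smaller changes are called, or how often calls are false in libraries such as these. Intervals on reads are exact binomial. Exact permutation of 3 against 3 libraries cannot go below a p of 0.1 and was not run. Alternatives were scaling, the pseudocount, the minimum, the trends and leaving out libraries.

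The 8 genes, the pathway lists and the marker lists were chosen with earlier results of these data known. Named genes are the 8, the ligands and receptors of their systems, up to 4 called genes with the largest change per signalling or response list and fraction, 3 genes most like each of the 8, and Ezh2, Atoh7 and Thy1; Gfap was added after its values were seen. Some of the genes that this rule names are not reported here. Sequences are RefSeq's. Scripts ran in Python 3.11.15 (numpy 2.4.6, pandas 2.3.3, scipy 1.17.1, statsmodels 0.14.6).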

Additional observations from a re-analysis of the deposited data

How the results depend on the processing

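Leaving out each library in turn gave 2 to 5 of the 8 genes called between mKO and WT in RGCs (4 with all), 1 to 4 in non-RGCs (3 with all), 6 to 7 between fractions in WT, and 23 to 40 and 0 to 12 pathway genes in RGCs and non-RGCs (32 and 14 with all). The count in RGCs was 2 without the mean-variance trend and with upper quartile scaling, and 0 with the trend in GC content, or in GC content and reads per base, removed. In non-RGCs it was 1 under no mean-variance trend, scaling by the total and both trend removals. Pathway calls were 7 and 1 with the GC content trend removed. The interaction count of 0 became 2 at p under 0.05 with a fold of 1.5 or more, and 1 without library C of both WT fractions. Bdnf in non-RGCs and the fraction differences of Ntrk2, Ntrk3, Ret, Bdnf and Gfra1 kept direction and call in every alternative run. Calls in RGCs were 43.5% higher ones with the authors' size factors and 63.3% with scaling by the total, and 39.4% and 75.0% in non-RGCs. Scaling by the total reversed Gfra1 in RGCs (log2 difference 0.0221), Ntrk3 in non-RGCs (0.146; 0.00491 with the upper quartile) and Ngfr (-0.0508) and Cntfr (-0.0881) between fractions in mKO. Removing the GC content trend reversed Gfra1 in RGCs (0.0524) and Cntfr between fractions in mKO (-0.0341), and removing both trends reversed Ret in RGCs (0.0581). Cntfr between fractions in mKO was -0.045 without library A of both mKO fractions and -0.0424 without those and the WT C libraries. In the interaction Cntfr was -0.0445 without the A libraries, and Ret was -0.0986 without the WT C libraries and -0.00676 without all 4. With single libraries left out, signs turned within these ranges: Ntrk2 (-0.0317 to 0.38) and Gfra1 (-0.31 to 0.127) in RGCs, Ntrk3 in non-RGCs (-0.15 to 0.0565), Ngfr (-0.35 to 0.0401) and Cntfr (-0.0847 to 0.063) between fractions in WT, Ngfr (-0.0279 to 0.17) and Cntfr (-0.0452 to 0.10) in mKO, and Cntfr in the interaction (-0.0395 to 0.13). Beyond what an alternative's own construction shows, the cause was not tested. No paired analysis was possible because the deposited columns are group means and the recovered libraries carry no replicate number.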
